A study of Sus scrofa with 24 samples.

Results

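Slow, or type I, muscle fibres carry their own versions of the contractile proteins, and 7 genes for these proteins were followed here in the longissimus dorsi (loin) muscle of pigs. They were MYH7, MYL2, MYL3, TNNC1, TNNI1, TNNT1 and TPM3, and every probe set that the array's annotation gives one of these symbols was taken. They are 7 of the 6765 genes that the annotation names with a single symbol, and they gave 9 of the 24123 probe sets on the array, with 1 probe set for each gene except TPM3, which had 3. All 9 were among the 14399 probe sets that passed a filter on low signal and were tested.

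The study asked how the kind of fat in the feed affects pork and the gene expression of the muscle. Crossbred pigs (Landrace, Large White and Duroc) of about 71 kg and 130 days of age were given feed with 3.0% soybean oil, olive oil, coconut oil or beef tallow. Each fat was represented by 6 pigs, 3 barrows (castrated males) and 3 gilts (young females), which makes 24 arrays with 1 pig each, 12 from barrows and 12 from gilts. No diet without added fat was analysed here. Pigs are called by the running number in their sample titles, in which gilts carry 1 to 12 and barrows 13 to 24. Any step done in that order cannot be told apart from sex. The labels do not tie the sampled pigs to pens, so pen could not be modelled and the p-values treat the pigs as independent.

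In a slow fibre, MYH7 encodes the myosin heavy chain that splits ATP and pulls on the thin filament, and MYL2 and MYL3 encode the regulatory and essential light chains that sit on its neck. TNNC1 encodes the troponin C that binds calcium, TNNI1 the slow troponin I that blocks contraction at rest, and TNNT1 the slow troponin T that ties the complex to tropomyosin. TPM3 encodes the tropomyosin of slow fibres, and the same gene also gives non-muscle tropomyosins through alternative splicing. MYH7, MYL2, MYL3 and TNNC1 are used by the heart as well. Pig longissimus is built mainly from fast fibres, so a readout of these genes follows a minority of its fibres, and in whole muscle RNA fewer slow fibres and less RNA per slow fibre cannot be told apart.

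Values are array signals in linear intensity units, with the mean over arrays and its SD. MYH7 had a signal of 39587 ± 6845 over the 24 pigs, MYL2 44112 ± 6778, MYL3 22965 ± 5021, TNNC1 36316 ± 6988, TNNI1 28297 ± 5050 and TNNT1 37914 ± 6377 (SD, n = 24). The 3 TPM3 probe sets were dimmer and are called A, B and C from the brightest to the dimmest, with 2161 ± 512 for A, 1909 ± 472 for B and 1494 ± 544 for C (SD, n = 24). Their array IDs are in the plots. Signals of different probe sets also depend on the probes, so no order of abundance between the genes is read from them. The first 6 genes lay between the 98.97th and 99.97th percentile of their array in every pig, near the upper end of the scale, and all 6 were among the brightest 1% of probe sets by mean signal.

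The coefficient of variation over all pigs was 15.4% for MYL2, the lowest, and 21.9% for MYL3, the highest of these 6, against 23.7% to 36.4% for the TPM3 probe sets. The highest pig exceeded the lowest 1.81-fold for MYL2 and 2.91-fold for MYL3, while TPM3 C spanned 4.98-fold. Pig 11, a gilt on soybean oil, was highest for MYH7, MYL2, MYL3 and TNNI1. Pig 12, a gilt on olive oil, was lowest for MYH7, MYL3, TNNI1 and TNNT1. The arrays of pigs 11, 12 and 16 correlated least with the other arrays.

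Markers of skeletal muscle fibres and heart were looked up among the tested probe sets. A tested probe set shows only that its mean passed the signal filter, so these counts do not establish the identity of the tissue. Of 8 skeletal muscle fibre markers, 5 had a tested probe set, MYH7 among them. Of 7 heart markers, 5 were on the array, and NPPA, TNNI3 and RYR2 lay below the signal filter, with MYL4 and NPPB above it.

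Differences were tested on log2(signal + 1) with limma, and the threshold was a Benjamini-Hochberg adjusted p under 0.05 over all tested probe sets. No slow gene passed it in any pair of fats, and the fats overlapped in every one of them. MYH7 ranged from 28599 to 51992 (median 36057) with soybean oil, from 27354 to 48705 (median 39915) with olive oil, from 38029 to 46920 (median 42241) with coconut oil and from 29241 to 47601 (median 40550) with beef tallow. Its mean was thus highest with coconut oil and lowest with soybean oil (37404 ± 8475 with soybean oil, 42290 ± 3993 with coconut oil; SD, n = 6 each), and the ranges of all 4 fats overlapped. Soybean minus coconut, the furthest apart of the 6 pairs, was -0.20 ± 0.16 on the log2 scale (SE), with a limma adjusted p of 0.607 and a 95% confidence interval from -0.54 to 0.14. Without pigs 11, 12 and 16 it was -0.29 ± 0.13 (SE, limma adjusted p = 0.374), and without them soybean minus olive of MYH7 was -0.26 (-0.04 with all pigs) and olive minus coconut was -0.03 (-0.16 with all pigs).

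**Figure D1:**
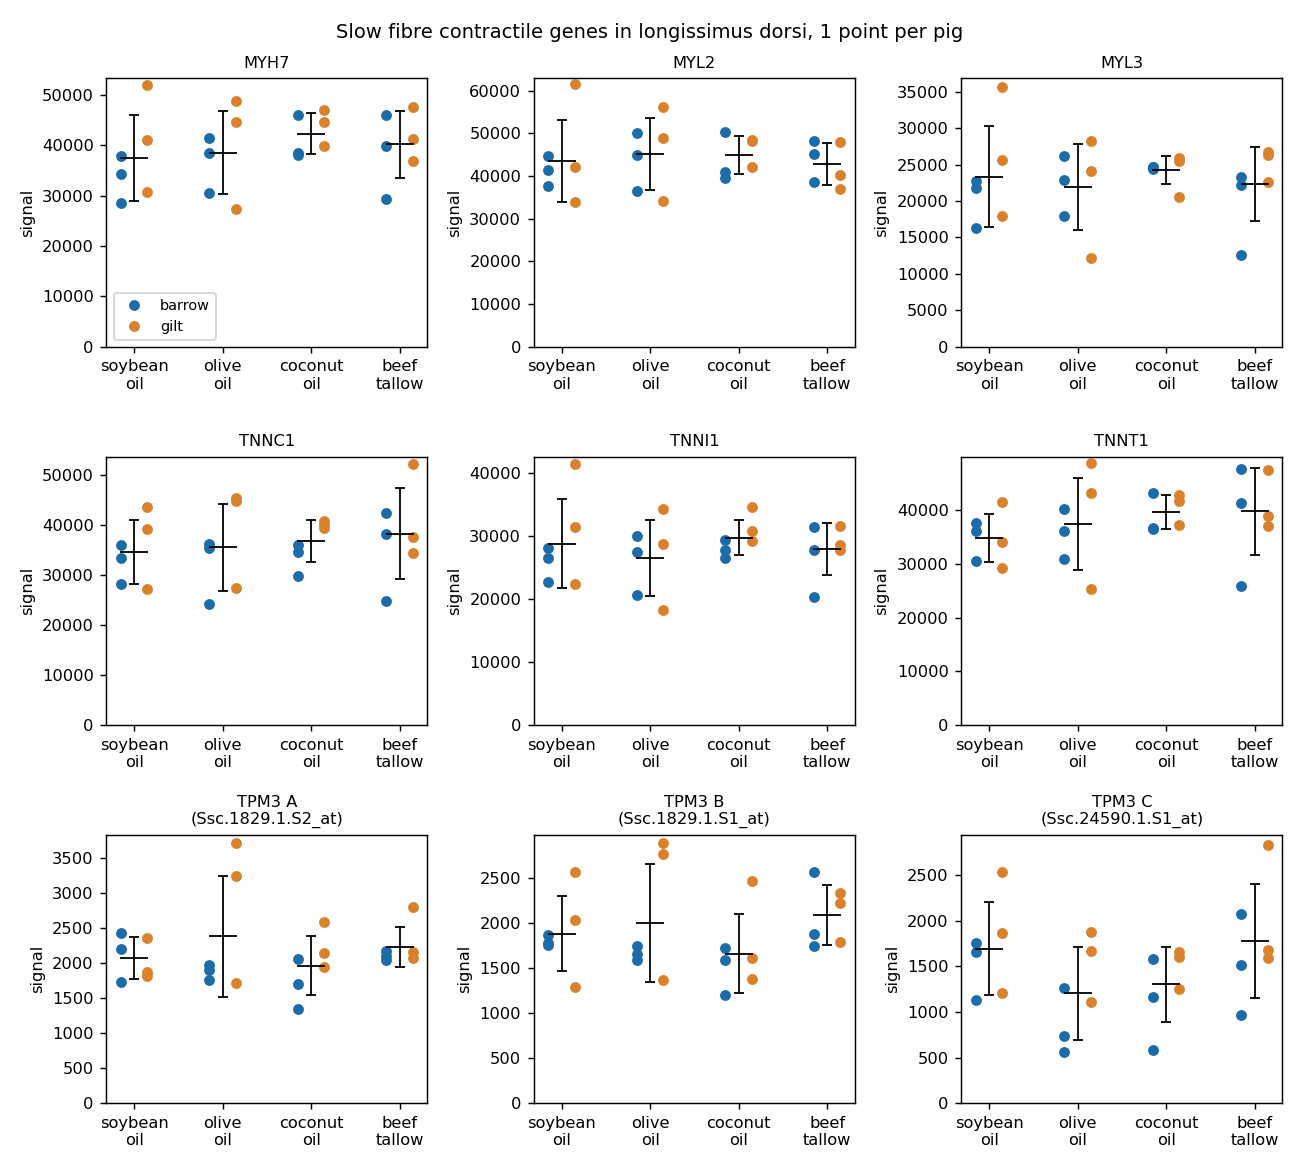
Signal (linear intensity units, axis from 0) of each of the 9 probe sets by dietary fat, with barrows in blue and gilts in orange and 1 point per pig. The bar is the mean and the whiskers 1 SD over 6 pigs. The fats overlap in every panel, and with coconut oil the 6 TNNT1 signals lie between 36538 and 43219.

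Of the light chains, MYL2 had a median of 41808 with soybean oil (33884 to 61448), 46893 with olive oil (34168 to 56194), 45145 with coconut oil (39570 to 50208) and 42613 with beef tallow (36912 to 48289). MYL3 had a median of 22239 with soybean oil (16285 to 35650), 23480 with olive oil (12246 to 28243), 24632 with coconut oil (20596 to 25884) and 23017 with beef tallow (12650 to 26782). No pair of fats was separated in either gene, and the lowest MYL3 signals belonged to pig 12 on olive oil and pig 21 on beef tallow. The largest MYL3 difference was olive minus coconut, at -0.20 ± 0.21 on the log2 scale (SE, limma adjusted p = 0.775). It rested on pig 12, without which it was -0.01.

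For troponin, TNNC1 had a median of 34761 with soybean oil (27139 to 43594), 35743 with olive oil (24143 to 45392), 37653 with coconut oil (29909 to 40729) and 37895 with beef tallow (24843 to 52251). TNNI1 had a median of 27371 with soybean oil (22376 to 41496), 28183 with olive oil (18302 to 34371), 29376 with coconut oil (26541 to 34600) and 28282 with beef tallow (20416 to 31606). TNNT1 had a median of 35048 with soybean oil (29277 to 41426), 38144 with olive oil (25359 to 48755), 39450 with coconut oil (36538 to 43219) and 40126 with beef tallow (25919 to 47724). All of these ranges overlapped. TNNT1 had its lowest mean with soybean oil, where the difference was -0.17 ± 0.17 from beef tallow and -0.19 ± 0.17 from coconut oil on the log2 scale (SE, limma adjusted p = 1.00 and 0.625).

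Over the 6 genes with a single probe set and the 6 pairs of fats, the 36 differences lay between -0.20 and 0.16 on the log2 scale, and none had an unadjusted p under 0.05. Their 95% confidence intervals together ran from -0.62 to 0.58, which is 0.65-fold to 1.5-fold. Their SE lay between 0.15 and 0.21. The share of all tested probe sets past the threshold was 1.12% for coconut minus tallow and 0% for olive minus tallow, soybean minus tallow, olive minus coconut, soybean minus coconut and soybean minus olive, beside 0 of 9 members in each. Median differences of the 7 genes, with TPM3 A alone standing for TPM3, ranged from -0.11 to 0.07 across the 6 pairs. For all tested probe sets they were -0.04 to 0.03. The F test over the 4 fats called 0 of the 14399 probe sets, which is 0%, and its unadjusted p for the members lay between 0.0919 (TPM3 C) and 0.948 (MYL2).

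**Figure D2:**
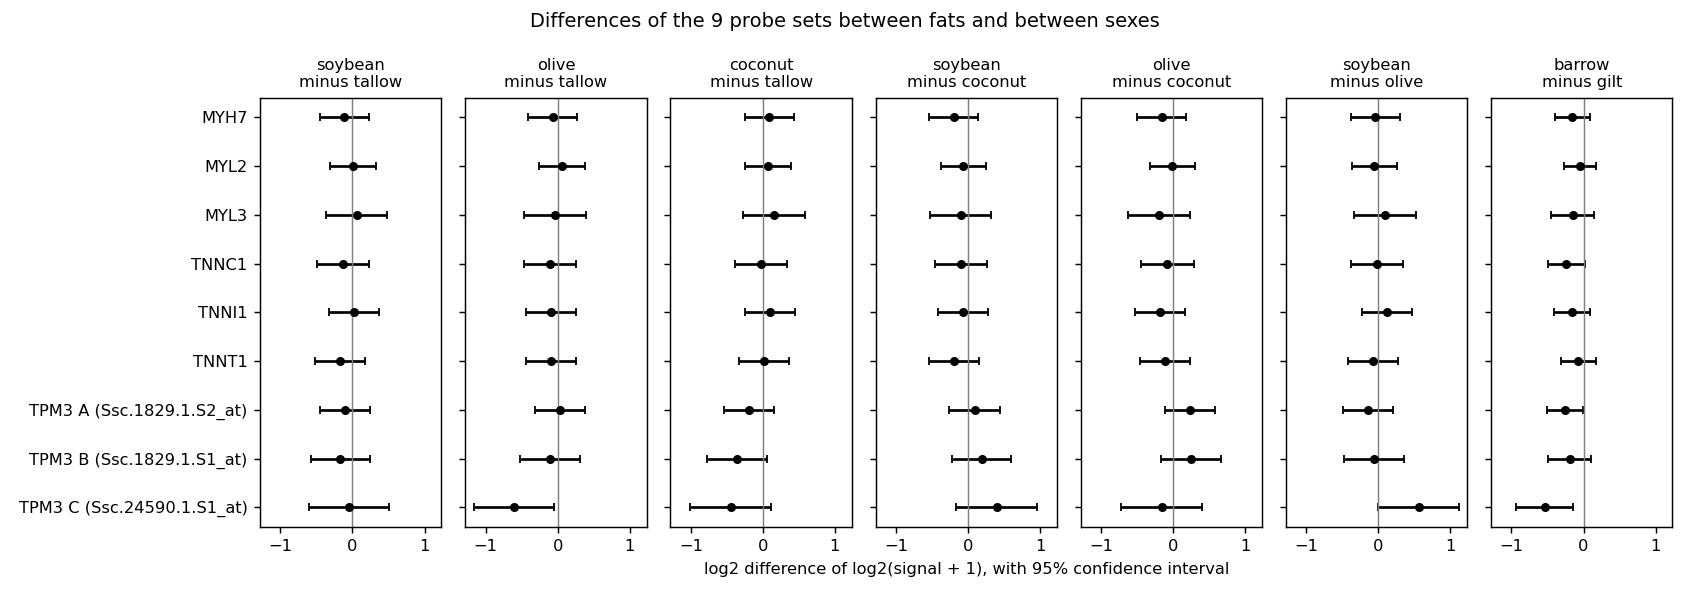
Log2 differences of log2(signal + 1) with 95% confidence intervals, for the 9 probe sets (rows) in the 6 pairs of fats and barrow minus gilt (panels). Positive values are higher in the group named first. In the first 6 rows every interval includes 0, and only TPM3 C (olive minus tallow, barrow minus gilt) and TPM3 A (barrow minus gilt) have intervals that do not, before adjustment over all probe sets.

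The TPM3 probe sets spread more widely. TPM3 C had a median signal of 1705 with soybean oil (1133 to 2532), 1188 with olive oil (567 to 1878), 1420 with coconut oil (580 to 1655) and 1633 with beef tallow (966 to 2826). Olive minus tallow was -0.61 ± 0.27 on the log2 scale (SE, limma adjusted p = 0.729), and soybean minus olive was 0.56 ± 0.27 (adjusted p = 1.00). With olive oil it had means of 854 ± 362 in barrows and 1553 ± 394 in gilts (SD, n = 3 each), and with the other fats 1108 to 1519 in barrows and 1504 to 2031 in gilts. Neither difference passed the threshold, and the interaction with sex did not pass either (adjusted p of the F test of fat by sex 0.920).

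TPM3 A and B, whose IDs share a cluster number, gave another order of fats. TPM3 A had means of 2070 ± 299 with soybean oil, 2382 ± 863 with olive oil, 1966 ± 417 with coconut oil and 2224 ± 286 with beef tallow (SD, n = 6 each). TPM3 B had 1882 ± 416 with soybean oil, 2002 ± 652 with olive oil, 1661 ± 437 with coconut oil and 2092 ± 333 with beef tallow (SD, n = 6 each). TPM3 B in coconut oil minus beef tallow, at -0.36 ± 0.20 on the log2 scale, had the smallest adjusted limma p of the TPM3 probe sets for any pair of fats, 0.329. The high mean of TPM3 A with olive oil comes with an SD of 863, and pig 12 had the highest signal, 3708.

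Slow contractile genes were lower on average in barrows than in gilts in all 9 probe sets, and none passed the threshold. MYH7 ranged from 28599 to 46033 (median 38190) in barrows, against 27354 to 51992 (median 42890) in gilts. TNNC1 ranged from 24143 to 42500 (median 34988) in barrows, against 27139 to 52251 (median 39811) in gilts, and 11 of 12 barrows lay below the mean of the gilts. TNNI1 ranged from 20416 to 31472 (median 27685) in barrows, against 18302 to 41496 (median 30117) in gilts. The sexes overlapped in every member.

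The barrow minus gilt difference was -0.24 ± 0.12 on the log2 scale for TNNC1 (SE, limma adjusted p = 0.280), -0.16 ± 0.12 for TNNI1 (0.477), -0.15 ± 0.12 for MYH7 (0.477), -0.15 ± 0.14 for MYL3 (0.595), -0.07 ± 0.12 for TNNT1 (0.774) and -0.05 ± 0.11 for MYL2 (0.852). Among TPM3 probe sets it was -0.54 ± 0.19 for TPM3 C (0.104), -0.25 ± 0.12 for TPM3 A (0.219) and -0.19 ± 0.14 for TPM3 B (0.463). The background of this comparison was larger, since 4.77% of all tested probe sets passed the threshold, 326 higher and 361 lower in barrows, beside 0 of the 9 members. The median of the 7 genes, with TPM3 A alone standing for TPM3, was -0.15 and that of all tested probe sets -0.02. TPM3 A passed the threshold only when pig 7 was left out, with -0.34 and an adjusted p of 0.0372. MYL2 is the one member whose sign changed under another scaling, to 0.00029 with median centring of the arrays, and it was 0.013 without pig 11. TNNT1 was -0.14 without pig 12 and -0.19 without pigs 11, 12 and 16.

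Within a sex the 12 pairs of fats called no member. The background was highest for coconut minus tallow in barrows, at 2.07% of tested probe sets, with 0.118% for olive minus tallow in barrows, 0.0139% for soybean minus olive in gilts and 0% for the others. Unadjusted p under 0.05 occurred for TPM3 C alone, in olive minus tallow (-0.84 ± 0.38, SE, limma adjusted p = 0.302) and soybean minus olive (0.88 ± 0.38, adjusted p = 1.00), both in barrows. The F test of fat by sex called no probe set.

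Between pigs, the 6 genes other than TPM3 went up and down together. Each of their 15 pairs was correlated over the 24 pigs, with Pearson's r from 0.69 to 0.92 and Spearman's rho from 0.53 to 0.90. The largest permutation p for r was 0.00017 over 100000 permutations, and 0.00036 after Benjamini-Hochberg adjustment over the 36 pairs of probe sets. The largest adjusted p for rho was 0.016. Leaving out the 2 pigs farthest from the median of the first gene of each pair left r from 0.47 to 0.91. Within barrows r was 0.61 to 0.94 and within gilts 0.62 to 0.92, and after centring on the 8 groups of fat and sex it was 0.74 to 0.94. Within a single fat, over 6 pigs, the lowest r of any pair was -0.19, for MYL3 with TNNC1, and the highest 0.99.

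Other bright probe sets moved with the 6 genes. The mean centred log2 level of the 234 brightest other probe sets correlated with that of the 6 genes at r = 0.87 after centring on the 8 groups, over 24 pigs. Single genes among the 6 had an SD of 0.22 to 0.35 on the log2 scale, beside a median SD of 0.21 for single probe sets among the 234. Among those 234 probe sets, 62.4% had an r over 0.5 with the 6 genes. After quantile normalization the centred correlations between the 6 genes were 0.29 to 0.84 with a median of 0.65, and with median centring of the arrays 0.79 to 0.95. RNA integrity, read from the 3' over 5' signal of control transcripts, had r = 0.25 with the 6 genes for GAPDH and r = -0.22 for actin, after the same centring. These relations are given as descriptions, and their part in the correlation between the slow genes was not tested.

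**Figure D3:**
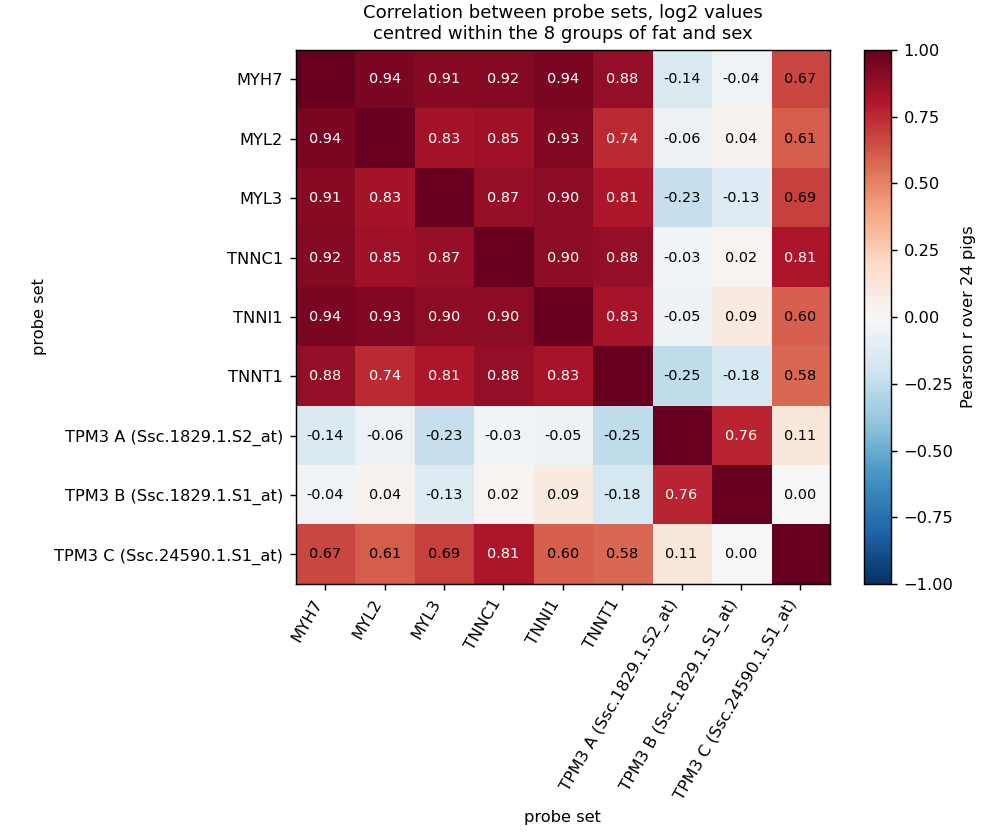
Pearson correlation over 24 pigs between the 9 probe sets (both axes), on log2 values centred within the 8 groups. The 6 genes other than TPM3 form a block from 0.74 to 0.94, TPM3 C joins it at 0.58 to 0.81, and the other TPM3 probe sets correlate with each other at 0.76 and little with the rest.

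TPM3 did not move as 1 gene. TPM3 C correlated with the 6 genes at r from 0.41 to 0.75, the highest being TNNC1 (permutation p = 2e-05, adjusted over the 36 pairs 6e-05, rho = 0.75). With MYH7, MYL3 and TNNI1 the adjusted permutation p for r was 0.0163, 0.0313 and 0.0142, and with MYL2 and TNNT1 it was 0.0733 and 0.0514 and did not pass. TPM3 A and TPM3 B had r from -0.24 to 0.18 and from -0.18 to 0.16 with the 6 genes. These 2 correlated with each other at r = 0.80, but with TPM3 C only at 0.33 and 0.26 (permutation p = 0.111 and 0.227). These permutation p are for values not centred on fat and sex. With the 6 genes, TPM3 C had r from 0.25 to 0.65 within barrows and from 0.55 to 0.82 within gilts. After quantile normalization and centring on the 8 groups it was 0.33 to 0.80. Which TPM3 transcripts each probe set binds was not looked up here.

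Genes outside the members were ranked by their likeness to the slow level, the mean over the 7 genes of centred log2 values, with r over 24 pigs after centring on the 8 groups. Among the most alike a gene stood by its probe set with the highest r, and among the least alike by the lowest. The 10 most alike of 7244 probe sets with 1 symbol were ATP2A2 (0.92), TNNC2 (0.91), PRDX2 (0.90), TPM2 (0.90), FTH1 (0.90), EEF1G (0.90), MYBPC1 (0.89), UBB (0.89), DES (0.88) and NDUFA4 (0.88). ATP2A2 encodes the calcium pump of slow fibres, but its 3 other probe sets had r from -0.11 to 0.21. TNNC2 encodes the troponin C of fast fibres, DES the intermediate filament desmin, and FTH1 a ferritin chain. The 5 least alike were DYNC1I2 (-0.83), ARV1 (-0.81), POGLUT1 (-0.80), ATG12 (-0.80) and NGDN (-0.78). The other probe set of DYNC1I2 had r = -0.17, that of POGLUT1 -0.43, that of ATG12 -0.33 and that of NGDN -0.12. Across all 7244, which include the members, the median r was -0.01, and 49 exceeded 0.8. MYH7, TNNI1, TNNC1, MYL2, MYL3 and TNNT1, which are part of the slow level, are among the 49 with r from 0.87 to 0.97.

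The balance of slow and fast genes was described with a fast list, of which 9 of 16 genes had a tested probe set. None of the 9 passed in any of the 7 comparisons. In barrow minus gilt, MYH2, the fast oxidative IIa myosin heavy chain, differed by 0.79 ± 0.25 on the log2 scale (SE, limma adjusted p = 0.0705), with a median signal of 8626 in barrows (7268 to 15313) and 5779 in gilts (1757 to 16148). All 12 barrows lay above the mean of the gilts, although the ranges overlapped. ATP2A1, the calcium pump of fast fibres, differed by 0.25 ± 0.11 (adjusted p = 0.188). The median of the 9 fast genes was 0.11, and 6 of the 9 differences were positive.

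Per pig, the mean centred level of the 6 slow genes minus that of the 9 fast genes was -0.15 ± 0.17 on the log2 scale in barrows and 0.15 ± 0.19 in gilts (SD, n = 12 each). Levels are centred on the mean of the 24 pigs, so the means of the sexes mirror each other, and 12 of the 24 pigs lay within 0.1 of 0. It was also lower in barrows within each fat, at -0.16 in barrows and 0.12 in gilts with soybean oil and -0.14 in barrows and 0.10 in gilts with olive oil. With coconut oil it was -0.09 in barrows and 0.14 in gilts, and with beef tallow -0.20 in barrows and 0.22 in gilts. The ranges overlapped, from -0.48 to 0.07 in barrows and from -0.09 to 0.56 in gilts. No test was run on this level. Its fast part is a mean that includes MYH2, the largest of the 9 barrow minus gilt differences (0.79, beside a median of 0.11). The level of the brightest other probe sets, which leaves out the members but not the fast genes, averaged 0.0045 in barrows and -0.0045 in gilts. Its part in the difference between the sexes was not tested.

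**Figure D4:**
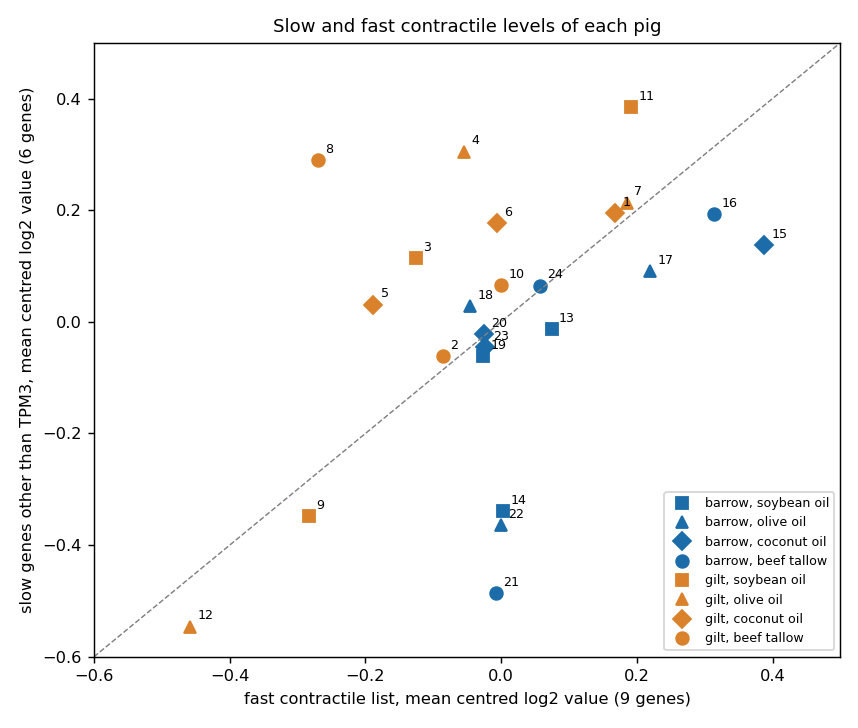
Mean centred log2 level of the 6 slow genes other than TPM3 (vertical axis) against that of the 9 fast genes (horizontal axis), 1 point per pig, with pig numbers, color for sex and shape for fat. The dashed line marks equal centred levels, and 12 of the 24 pigs lie within 0.1 of it.

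Other genes of the slow programme, outside the filaments, differed between the sexes in 4 of the 13 tested genes of an 18 gene list, beside 4.77% of all tested probe sets. The list was written with earlier results of these data known, so this count is not a test of the list. All 4 fell in barrows, and 10 of the 13 differences were negative, with a median of -0.11. FABP3, the fatty acid carrier of oxidative muscle, had a median signal of 12586 in barrows (6133 to 20781) and 29083 in gilts (15575 to 37635), with all 12 barrows below the mean of the gilts. The difference was -0.96 ± 0.19 on the log2 scale (SE, limma adjusted p = 0.00880). LDHB, the lactate dehydrogenase subunit of oxidative tissue, had a median of 10811 in barrows (6657 to 14882) and 17432 in gilts (10557 to 25048), a difference of -0.61 ± 0.12 (adjusted p = 0.00880).

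CASQ2, the calsequestrin of slow fibres and heart, fell by 1.31 ± 0.28 (SE, limma adjusted p = 0.0128), from a dim probe set whose signal was under the filter level in 6 of 12 barrows and 1 of 12 gilts. PDLIM1 fell by 0.54 ± 0.14 (adjusted p = 0.0316), and it did not pass in 13 of 34 alternatives. The slow contractile genes, with differences from -0.05 to -0.25 for their brightest probe sets, did not pass beside these.

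**Figure D5:**
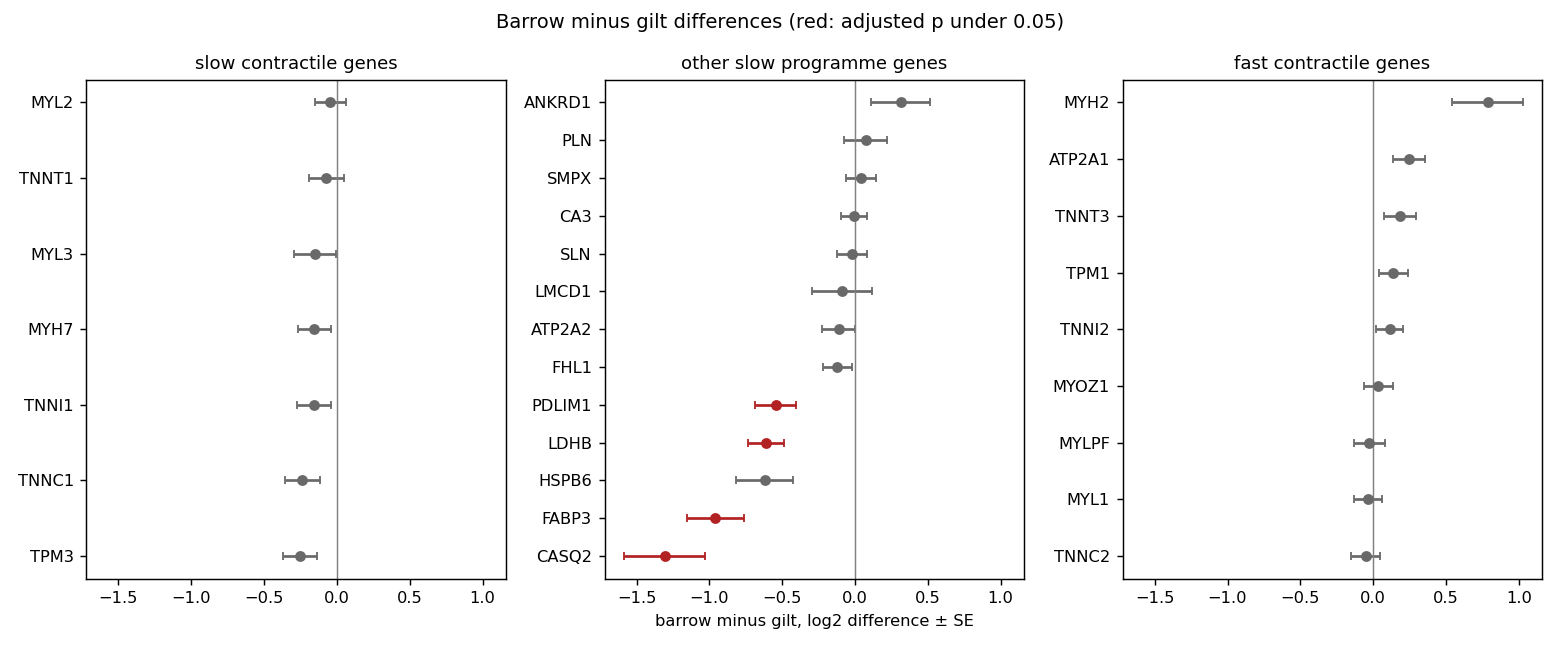
Barrow minus gilt log2 differences ± SE for the slow contractile genes (left, brightest probe set per gene), other slow programme genes (middle) and fast contractile genes (right), with an adjusted p under 0.05 in red. FABP3, LDHB, CASQ2 and PDLIM1 are red, and no slow or fast contractile gene is.

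Of 29 regulators listed for slow fibre genes, 12 had a tested probe set. This list was also written with earlier results of these data known, so its counts are not a test of it. The share of all tested probe sets past the threshold was 4.77% in barrow minus gilt and 1.12% in coconut minus tallow. In barrow minus gilt 3 of the 12 passed. Of these 2 rose, namely PPP3CA (0.47 ± 0.11, SE, limma adjusted p = 0.0209) and PPP3CB (0.35 ± 0.10, adjusted p = 0.0472), the catalytic subunits of the phosphatase calcineurin. RCAN1, which encodes an inhibitor of calcineurin, fell by 0.89 ± 0.21 (adjusted p = 0.0183), and its second probe set by 1.04 ± 0.23 (adjusted p = 0.0142). Without the signal filter, PPP3CA and RCAN1 had adjusted p of 0.0538 and 0.0519 and did not pass. The other probe sets of PPP3CA differed by 0.36 ± 0.13 and 0.35 ± 0.12 and did not pass (limma adjusted p = 0.112 and 0.107). PPP3CB did not pass in 21 of 34 alternatives. Of its other probe sets, 1 differed by 0.27 ± 0.13 (limma adjusted p = 0.258) and 1 had the opposite sign, -0.16 ± 0.10 (adjusted p = 0.418). In coconut minus tallow 1 of the 12 rose, the transcription factor MEF2A, at 0.58 ± 0.14 (adjusted p = 0.0483), which did not pass in 22 of 35 alternatives. Its second probe set did not pass, at 0.61 ± 0.17 (limma adjusted p = 0.0659). Of the 12 differences 10 were positive and 2 negative. The largest, PPARGC1A at 1.55 ± 0.44, did not pass (limma adjusted p = 0.0708). Its signals with coconut oil (16978 to 28387) and beef tallow (2700 to 15495) did not overlap, which was not counted over all tested probe sets. PPARGC1A, picked here as the largest difference, did not pass in 32 of 35 alternatives.

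Markers of other cells moved in some of these comparisons. In barrow minus gilt 1 of 5 tested adipocyte markers fell, namely LPL, and 0 of 7 fibroblast markers passed, beside 4.77% of all tested probe sets. Endothelial markers were lower in barrows in 6 of 6 (median -0.27) and smooth muscle markers in 4 of 4 (median -0.30), with 0 past the threshold. An unadjusted limma p under 0.05 occurred in 3 endothelial and 2 smooth muscle markers, beside 21.1% of all tested probe sets. The endothelial level lay between -0.49 and 0.26 in barrows and between -0.34 and 0.38 in gilts, and the smooth muscle level between -0.77 and 0.52 in barrows and between -0.29 and 1.14 in gilts. The mean centred log2 level of the adipocyte list lay between -1.09 and 0.98 in barrows and between -0.80 and 1.28 in gilts. In coconut minus tallow 5 of 7 fibroblast and 1 of 5 adipocyte markers (FABP4) fell, beside 1.12% of all tested probe sets. With the additive model, or without pig 6, 8, 16 or 21, no probe set passed in this comparison, these markers included. The fibroblast level lay between -0.57 and -0.27 with coconut oil and between -0.24 and 1.05 with beef tallow. Over 24 pigs the level of the 6 slow genes had r = -0.19 with the adipocyte list, -0.25 with the fibroblast list, 0.06 with the endothelial list and -0.10 with the smooth muscle list, given as descriptions. The median signal of an array differed by -0.13 on the log2 scale between coconut oil and beef tallow, and centring on it turned TNNC1, at -0.03 in the main analysis, to 0.10. Their part in the results was not tested.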

How the data were processed

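Total RNA of longissimus dorsi was hybridised to 1-colour Affymetrix porcine arrays, per the labels' protocols. The deposited values are signals in linear intensity units. No summarisation algorithm is named there. On every array the 2% trimmed mean was 500.1 to 500.2 and the median 139 to 174, so the values are scaled and not quantile normalized, and none is centred or a ratio. Precision is set by the number of pigs, since arrays hold no counts.

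Signals were turned into log2(signal + 1). Of 23999 probe sets other than controls, 14399 were tested, namely those whose mean log2 value reached the 40th percentile, which is a signal of 86.3. The test was limma 3.58.1 (lmFit, eBayes; R 4.3.3), fitted to the 8 groups of fat and sex. Tests were two-sided, with a Benjamini-Hochberg adjusted p under 0.05 within each contrast as the threshold. Gene symbols come from the platform annotation (10069 probe sets with 1 symbol, 198 with several, 13732 with none), and the gene IDs of all 7 members matched RefSeq. For genes other than members, the probe set with the highest mean stood for the gene, except in the likeness ranking. There the probe set with the most extreme r stood for it.

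The fit was checked on simulated data. The members, the lists and the rule for named genes (all members, the 10 most and 5 least alike genes, and list members with the smallest p) were chosen with earlier results of these data known. Genes of the lists were further singled out after their values were seen. Alternatives were a signal filter at the 60th percentile or none, quantile normalization, median centring, a pseudocount of 16, an additive model, array weights, a trended and robust spread, a single probe set for each gene, the arrays of the compared fats alone and each pig left out. The fit without the 3 least correlated arrays was added after seeing the data. No sequences of the members were used here.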

Additional observations from a re-analysis of the deposited data

Results flagged for a closer look

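Within the 4 fats, a single pig stood apart from the other 5 of its fat in 5 of 36 groups of 6 pigs. Chance gives about 1 in 20 groups, but the 36 groups are 9 probe sets in the same 24 pigs, so they are not independent, and pig 21 accounts for 2 of the 5. The measure is the gap to the nearest other pig over the whole range of the group, both on the log2 scale. The signals printed beside it are linear. With beef tallow, pig 21, a barrow, was lowest for MYL3 with a signal of 12650 against 22186 to 26782 in the others (0.749 of the range) and for TNNI1 with 20416 against 27853 to 31606 (0.711). With coconut oil, pig 5, a gilt, was lowest for MYL3 with 20596 against 24384 to 25884 (0.739). Pig 8, a gilt, was highest with beef tallow for TPM3 A, with 2799 against 2047 to 2169 (0.816). Pig 23, a barrow, was lowest with coconut oil for TPM3 C, with 580 against 1160 to 1655 (0.662).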

How the results depend on the processing

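Over 35 alternatives, 24 of which leave out 1 pig, 1 of 2182 recomputed differences of the members passed the threshold, TPM3 A in barrow minus gilt without pig 7. The count of members past the threshold in barrow minus gilt was therefore 0 to 1 with each pig left out, and 0 in the other comparisons and alternatives. Of 63 differences 33 kept their sign in every alternative, and those that changed sign were at most 0.11 in size. Olive minus tallow turned positive for TNNT1 with array weights (0.074). Without pigs 11, 12 and 16 it was 0.13 for MYH7, 0.21 for MYL3, 0.087 for TNNC1, 0.11 for TNNI1 and 0.14 for TNNT1, and soybean minus olive was -0.21 for MYL3 and -0.12 for TNNI1; the cause was not tested. Leaving out pig 12 alone was enough to turn olive minus tallow positive, to 0.057 for MYH7, 0.14 for MYL3, 0.010 for TNNC1, 0.039 for TNNI1 and 0.050 for TNNT1. The number of all probe sets past the threshold ranged from 302 to 1530 in barrow minus gilt and from 0 to 1264 in coconut minus tallow. FABP3, LDHB and CASQ2 passed in every alternative run for them in barrow minus gilt. No paired analysis was possible because the pigs carry running numbers that no 2 groups share. The spread between 6 pigs per fat limits what could be seen.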
